A study of Mus musculus with 30 samples.

Results

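Among the proteins that astrocytes release onto synapses, 9 genes were followed: the thrombospondins Thbs1, Thbs2 and Thbs4, the SPARC family genes Sparc and Sparcl1, the glypicans Gpc4, Gpc5 and Gpc6, and Chrdl1. The list is defined by gene name and its rule uses no measured value, but it was chosen with earlier results of these data known. Each gene was read from the probe set that carried its symbol alone and had the highest mean over the 30 arrays. All 9 were measured, out of 18193 genes on the array, and all 9 were among the 15726 genes kept by a filter asking for log2 5 on at least 3 arrays.

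Thrombospondins are secreted matrix glycoproteins that induce structurally complete but postsynaptically silent synapses through the calcium channel subunit alpha2delta-1 (Cacna2d1). Hevin, the product of Sparcl1, also promotes excitatory synapses, while SPARC opposes it. Glypicans are heparan sulfate proteoglycans on a lipid anchor that can be shed, of which glypican-4 and glypican-6 recruit AMPA-type glutamate receptors, and chordin-like 1, a BMP antagonist made by Chrdl1, favours the GluA2 subunit (Gria2) at maturing synapses.

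The cells were astrocytes sorted for green fluorescence from papain-dissociated brains of young adult male mice carrying the reporter transgene Tg(Aldh1l1-eGFP) OFC789Gsat on a Swiss Webster background. The regulatory region of Aldh1l1, an astrocyte gene, drives the reporter, so that every group, controls included, holds cells of this reporter line. In the stroke model the middle cerebral artery was closed for 1 hour and then reperfused (middle cerebral artery occlusion, MCAO), and sham animals had the surgery without the occlusion. Cells were taken at 1 day (5 MCAO and 4 sham arrays), 3 days (3 and 3) and 7 days (3 and 3). In a second experiment mice received lipopolysaccharide (LPS) from E. coli O55:B55 at 5 mg/kg into the peritoneum (5 arrays) or endotoxin-free saline (4 arrays), and cells were taken after 1 day. RNA was amplified in 2 cycles and hybridised to 1 Affymetrix array per sample. Values below are log2 of the deposited intensity, errors of a group are SD over arrays, and errors of a difference are SE from limma.

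Astrocyte markers were high: the mean of 8 astrocyte genes lay between 12.32 and 13.48 on all arrays. Transcripts of oligodendrocytes were present too. The mean of 6 of their markers per array was 8.96 to 11.09 in sham at 1 day and 7.72 to 8.92 in sham at 7 days. Of these, Mbp and Cnp had means of 13.34 and 13.57 in sham at 1 day, beside 12.78 for Aldh1l1. A few arrays stood apart. The median intensity was 94 on LPS replicate 5 and 68 to 73 on the other 29 arrays. On LPS replicate 5, 5581 of the genes kept lay over 2-fold from the mean of the rest of its group. That number was 39 to 2633 on the other 29 arrays. The highest log2 value on an array was 14.94 to 15.12 on 16 arrays (called bright here) and 14.30 to 14.70 on the other 14 (called dim), a split seen in the data that no label gives. All 1-day surgery arrays were bright and all 7-day arrays dim. The 3-day groups each held 2 dim arrays and a bright one (replicate 3), the LPS group 3 bright and 2 dim arrays (replicates 4 and 5), and the saline group 2 of each (dim: replicates 3 and 4).

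The RefSeq table of GRCm38.p6 held a promoter for 5 of the 9 genes. The 250 bases before the transcription start are shown for Thbs2, Sparc and Gpc5, the genes with a change described below for which it had one. Capitals mark matches to the motifs searched.
Thbs2: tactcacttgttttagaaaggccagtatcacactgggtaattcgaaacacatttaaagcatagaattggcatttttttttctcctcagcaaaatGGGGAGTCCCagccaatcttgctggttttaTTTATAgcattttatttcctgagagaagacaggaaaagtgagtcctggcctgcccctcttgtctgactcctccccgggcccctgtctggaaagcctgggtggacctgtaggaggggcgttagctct
Sparc: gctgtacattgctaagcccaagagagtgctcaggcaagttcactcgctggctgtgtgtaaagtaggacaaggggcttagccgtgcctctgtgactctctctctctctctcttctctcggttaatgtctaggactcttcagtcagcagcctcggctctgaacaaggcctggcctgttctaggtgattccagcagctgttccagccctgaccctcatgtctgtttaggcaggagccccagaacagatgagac
Gpc5: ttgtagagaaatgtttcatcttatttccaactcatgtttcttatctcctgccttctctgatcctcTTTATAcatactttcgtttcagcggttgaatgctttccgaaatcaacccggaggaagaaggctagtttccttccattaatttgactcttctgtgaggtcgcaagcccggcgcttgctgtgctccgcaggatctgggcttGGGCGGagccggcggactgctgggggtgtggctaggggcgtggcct
They lie at chr17:14694263-14694512 (minus strand), chr11:55420081-55420330 (minus strand) and chr14:115091965-115092214 (plus strand), 5′ to 3′ on the gene's strand. The search covered both strands for an AP-1 site (TGANTCA, in 6.75% of 32851 mouse promoters of this length), a GC box (GGGCGG, 32.7%), a TATA box (TATAAA, 12.4%), a STAT site (TTCNNNGAA, 7.02%), a CArG box (1.47%) and an NF-kappaB site (5.93%). The Thbs2 window held 1 match to the NF-kappaB site, beginning at -156 from the start, and 1 to the TATA box, at -126. The Gpc5 window held 1 GC box at -46 and 1 TATA box at -185, and the Sparc window held 0 matches. The matched letters describe the sequence alone, and no binding was measured.

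**Figure D1:**
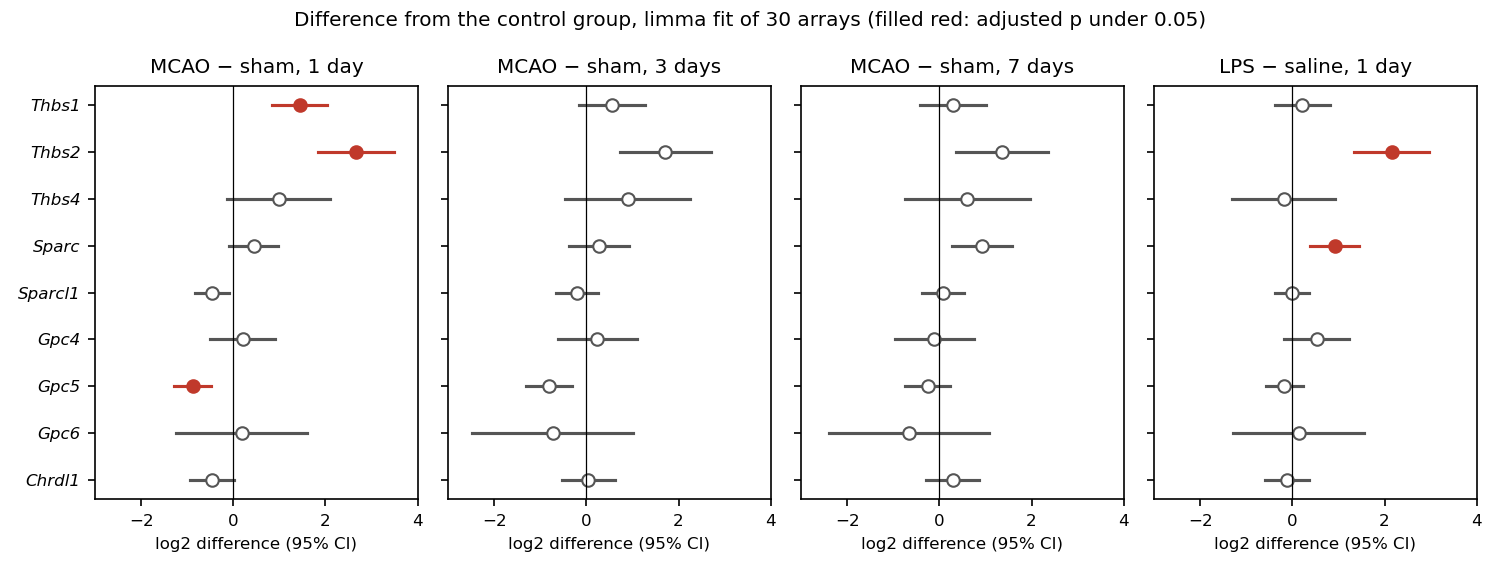
Log2 difference from the control group (x axis) for each of the 9 genes (y axis) in the 4 comparisons; points are limma estimates, bars 95% confidence intervals, and filled red points have an adjusted p under 0.05. Thbs1, Thbs2 and Gpc5 are filled for MCAO at 1 day, Thbs2 and Sparc for LPS, and no gene at 3 or 7 days.

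One day after stroke Thbs2 and Thbs1 rose and Gpc5 fell, which is 2 genes higher and 1 lower of 9 at a limma adjusted p under 0.05. Over all genes tested 12.7% passed in this comparison, 6.49% higher and 6.17% lower. The median difference of the 9 genes was 0.20, against -0.05 over all genes. After LPS Thbs2 and Sparc rose and 0 of the 9 fell, while 3.11% of all genes passed, 2.37% higher and 0.744% lower. The median was 0.13, against 0.07 over all genes. At 3 days 0 of 9 passed in limma, with 0.674% of all genes passing and medians of 0.24 and 0.01. At 7 days 0 of 9 passed, with 0.0254% of all genes passing and medians of 0.29 and -0.005. At an unadjusted p under 0.05 there were 2 genes at 3 days, Thbs2 and Gpc5, and 2 at 7 days, Thbs2 and Sparc, with 9.53% and 2.62% of all genes under it at these times.

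**Figure D2:**
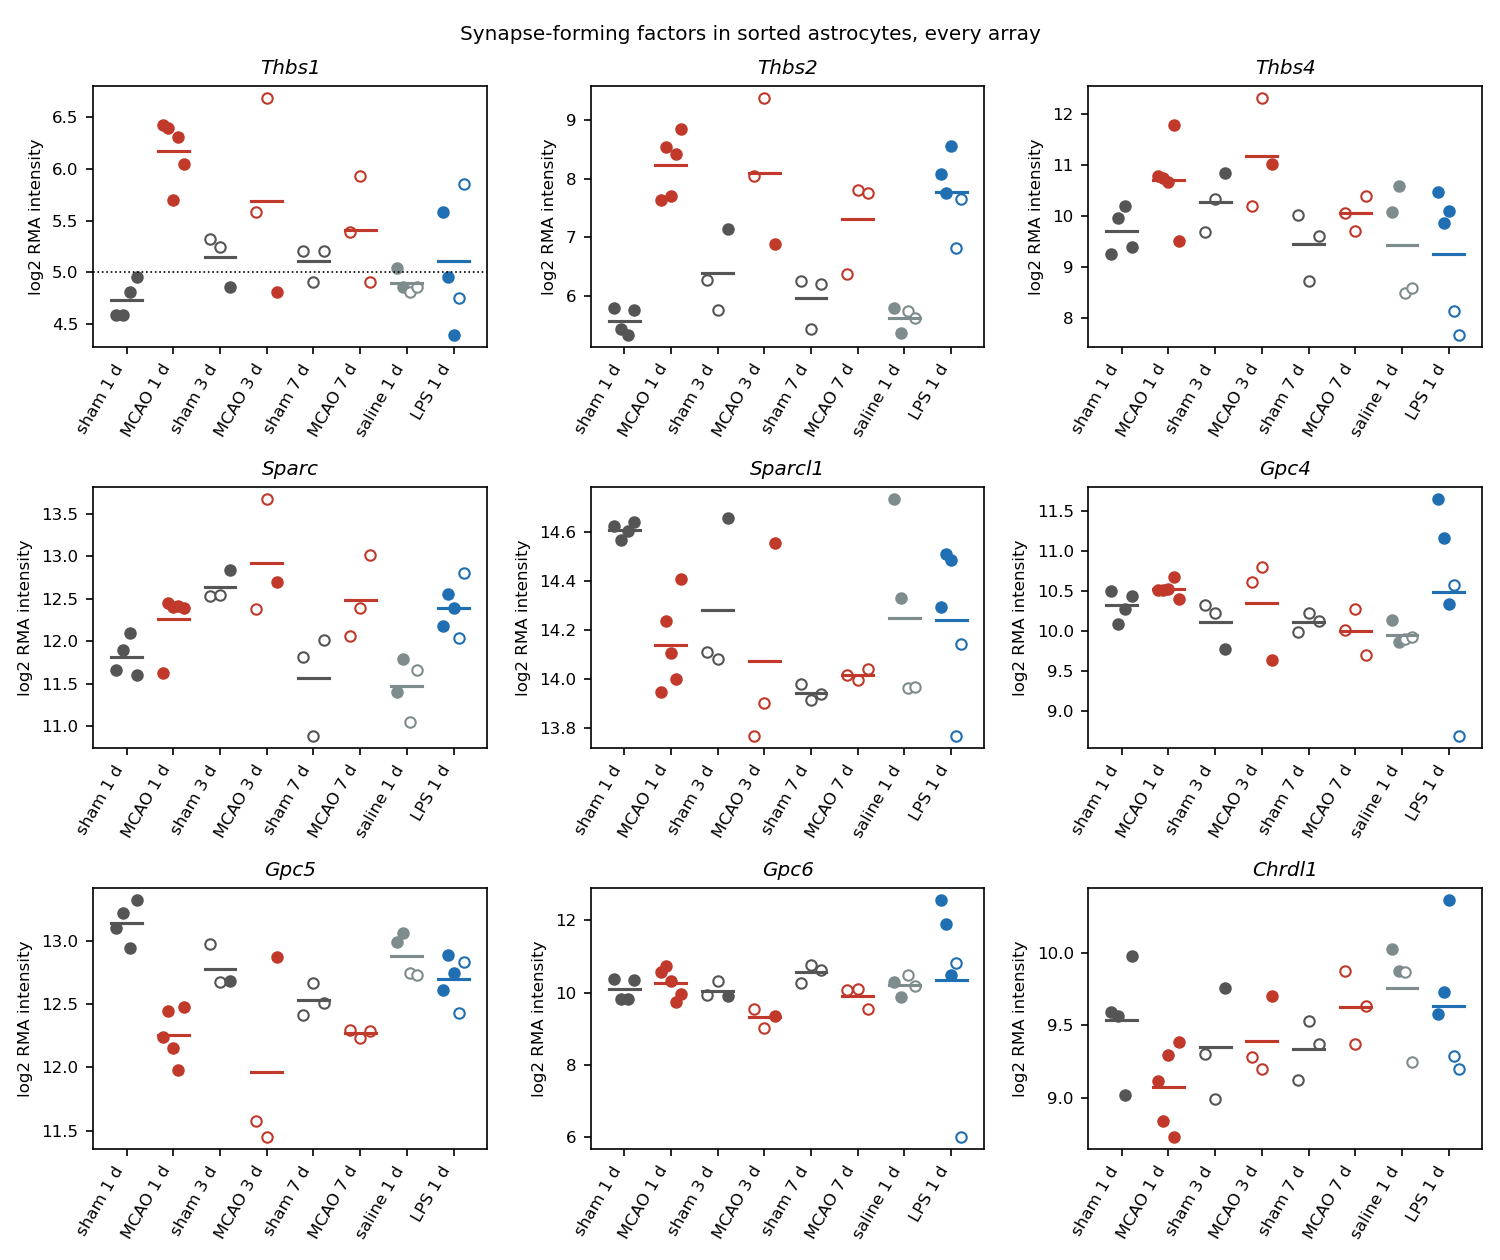
Log2 intensity (y axis) of each of the 9 genes on every array, by group (x axis); filled points are bright arrays and open points dim arrays as defined in the text, and bars are group means. The dotted line for Thbs1 is the filter level of log2 5. All 5 MCAO arrays of 1 day lie above all sham arrays for Thbs1 and Thbs2 and below them for Gpc5. Groups did not overlap for 27.3% of all genes in this comparison.

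Thbs2, a thrombospondin that forms trimers, rose 6.32-fold at 1 day after stroke. The sham arrays read 5.78, 5.43, 5.32 and 5.75 (5.57 ± 0.23, SD, n = 4) and the MCAO arrays 7.63, 8.55, 7.71, 8.42 and 8.85 (8.23 ± 0.54, SD, n = 5). The groups did not overlap, as for 27.3% of all genes in this comparison, and the size of the fold is uncertain because the sham arrays lay near the filter level. The difference was 2.66 ± 0.40 (limma adjusted p = 3.97e-05). In bulk RNA of sorted cells, more cells that make a transcript and more transcript per cell cannot be told apart.

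Thbs2 rose after LPS as well, 4.46-fold. Saline arrays read 5.78, 5.36, 5.73 and 5.62 (5.62 ± 0.19, SD, n = 4), close to the filter as the sham arrays were. LPS arrays read 8.09, 7.76, 8.56, 6.82 and 7.65 (7.78 ± 0.64, SD, n = 5). Every LPS array was above every saline array, and groups did not overlap for 2.75% of all genes. The difference was 2.16 ± 0.40 (adjusted p = 0.00177). It was 2.57 within the bright arrays (adjusted p = 0.00141) and 1.56 within the dim ones (adjusted p = 0.047).

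At 3 days the MCAO arrays read 8.04, 9.39 and 6.88 for Thbs2 and the sham arrays 6.27, 5.75 and 7.14. Replicate 3 of each group, the bright array, went the other way from the rest, with MCAO below sham. The difference over all arrays was 1.72 ± 0.49 (unadjusted p = 0.0015, adjusted p = 0.11). Without MCAO replicate 3 it was 2.33 (adjusted p = 0.00569), and without sham replicate 3 it was 2.09 (adjusted p = 0.0337). The 2 dim arrays of each group differed by 2.70 (adjusted p = 0.00148), and the bright pair by -0.26.

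Thbs2 at 7 days read 6.38, 7.80 and 7.75 on the MCAO arrays and 6.25, 5.43 and 6.19 on the sham arrays. The groups did not overlap, as for 16.3% of all genes, but replicate 1 of MCAO lay close to the sham arrays. The difference of 1.36 ± 0.49 had an unadjusted p of 0.00956 and an adjusted p of 1. The means of all 3 MCAO groups and of the LPS group were thus the highest of the 8 groups (8.23, 8.10, 7.78 and 7.31), and neighbours in that order overlapped.

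Thbs1, likewise a trimeric thrombospondin, rose at 1 day after stroke from values under the filter. Sham arrays read 4.58, 4.58, 4.81 and 4.95, all below log2 5, and MCAO arrays 6.43, 6.39, 5.70, 6.30 and 6.04. The groups did not overlap, as for 27.3% of all genes, and the difference was 1.44 ± 0.29 (adjusted p = 0.00104). The fold of 2.71 is therefore of uncertain size. After LPS Thbs1 read 5.58, 4.95, 4.39, 4.75 and 5.86, around the saline values of 4.81 to 5.04, with a difference of 0.22 ± 0.29 (adjusted p = 0.755).

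At 3 days the MCAO arrays of Thbs1 were spread from 4.81 to 6.69 and the sham arrays from 4.86 to 5.32, a difference of 0.55 ± 0.35 (adjusted p = 0.756). At 7 days the difference was 0.30 ± 0.35 (adjusted p = 1). In each of these groups 2 of 3 MCAO arrays were above all sham arrays.

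Thbs4, the pentameric thrombospondin of the 3, did not pass the test in any comparison. At 1 day after stroke it read 10.77, 10.74, 10.66, 11.78 and 9.50 on the MCAO arrays and 9.25 to 10.20 on the sham arrays, with 4 of 5 MCAO arrays above all sham arrays. The difference of 0.99 ± 0.54 (adjusted p = 0.294) had a 95% confidence interval from -0.13 to 2.11. The differences at 3 and 7 days were 0.89 ± 0.66 and 0.61 ± 0.66 (adjusted p = 0.838 and 1). After LPS the difference was -0.19 ± 0.54 (adjusted p = 0.903), and the arrays of both groups split by brightness: bright saline and LPS arrays read 9.86 to 10.58, dim ones 7.66 to 8.57. A MCAO array of 3 days, replicate 2, had the highest Thbs4 value of all, 12.31.

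Sparc, whose product counteracts hevin, rose 1.89-fold after LPS. The saline arrays read 11.40, 11.79, 11.05 and 11.66 (11.47 ± 0.32, SD, n = 4) and the LPS arrays 12.18, 12.55, 12.39, 12.04 and 12.80 (12.39 ± 0.30, SD, n = 5). All LPS arrays were above all saline arrays, and groups did not overlap for 2.75% of all genes. The difference was 0.92 ± 0.26 with an adjusted p of 0.0493, at the edge of the threshold. Leaving out single arrays gave 0.78 to 1.02, and the call held only without LPS replicate 3 (adjusted p = 0.0461) or LPS replicate 4 (0.0307). It was lost without saline replicate 1, 2, 3 or 4 (0.0816, 0.0569, 0.156 and 0.0907) and without LPS replicate 1, 2 or 5 (0.0679, 0.0843 and 0.0857). The difference was 0.78 within the bright arrays (adjusted p = 0.185) and 1.07 within the dim ones (adjusted p = 0.0821).

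After stroke Sparc did not pass. At 1 day it read 11.62, 12.46, 12.40, 12.41 and 12.39 on the MCAO arrays and 11.66, 11.90, 12.09 and 11.60 on the sham arrays. Replicate 1 of MCAO lay at the sham level and the other 4 above all sham arrays, and the difference was 0.44 ± 0.26 (adjusted p = 0.338). At 3 days the difference was 0.28 ± 0.32 (adjusted p = 0.973), and both groups had high means, 12.92 for MCAO and 12.64 for sham. At 7 days the MCAO arrays read 12.06, 12.39 and 13.01, all above the sham values of 11.81, 10.88 and 12.02. That difference of 0.92 ± 0.32, as large as after LPS, had an unadjusted p of 0.00726 and an adjusted p of 0.936. Groups did not overlap for 16.3% of all genes at 7 days.

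Sparcl1 read between 13.77 and 14.73 on all 30 arrays. That is 0.31 to 1.00 below the highest value of the same array, near the top of its range. At 1 day after stroke the MCAO arrays read 13.95, 14.23, 14.11, 14.002 and 14.41, all below the sham arrays at 14.62, 14.56, 14.60 and 14.64. Groups did not overlap for 27.3% of all genes in this comparison. The difference of -0.47 ± 0.18 had an unadjusted p of 0.0157 and did not pass after adjustment (adjusted p = 0.0951). It passed with quantile normalisation (-0.35, adjusted p = 0.0304), and with the 1-day surgery arrays fitted alone (-0.47, adjusted p = 0.00555). At 3 and 7 days and after LPS the differences were -0.21 ± 0.22, 0.07 ± 0.22 and -0.01 ± 0.18. Sparcl1 followed the array sets: bright arrays had a median of 14.50 and dim ones of 13.98.

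Gpc5, a glypican whose gene lies on chromosome 14 like that of Gpc6, fell 1.85-fold at 1 day after stroke. Sham arrays read 13.10, 13.21, 12.94 and 13.32 (13.14 ± 0.17, SD, n = 4) and MCAO arrays 12.24, 12.44, 12.16, 11.98 and 12.47 (12.26 ± 0.21, SD, n = 5). All MCAO arrays were below all sham arrays, and groups did not overlap for 27.3% of all genes in this comparison. The difference was -0.88 ± 0.20 (adjusted p = 0.00256). Astrocyte markers measured beside it had a median difference of -0.20, against -0.05 over all genes. Of these 8 markers 1 was lower, the glutamate transporter Slc1a3 (-0.52, adjusted p = 0.0165), as were 6.17% of all genes. The part of these markers in the fall of Gpc5 was not tested.

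Gpc5 at 3 days read 11.58, 11.45 and 12.87 on the MCAO arrays and 12.98, 12.67 and 12.68 on the sham arrays. The dim arrays were low after stroke and the bright one, replicate 3, was not, as with Thbs2 in the opposite direction. The difference was -0.81 ± 0.24 over all arrays (unadjusted p = 0.00209, adjusted p = 0.128), and -1.26 without MCAO replicate 3 (adjusted p = 0.000187). Without MCAO replicate 2 it was -0.55 (adjusted p = 0.765). The dim arrays alone differed by -1.31 (adjusted p = 0.00016) and the bright pair by 0.18.

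By 7 days the Gpc5 values of 12.29, 12.23 and 12.29 after MCAO lay just under sham values of 12.41, 12.67 and 12.51. The groups did not overlap, as for 16.3% of all genes. The difference was -0.26 ± 0.24 (adjusted p = 1). After LPS the arrays read 12.43 to 12.88 and the saline arrays 12.73 to 13.06, with a difference of -0.18 ± 0.20 (adjusted p = 0.699). The 95% confidence interval of the LPS difference ran from -0.58 to 0.22.

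Gpc4, whose product recruits AMPA receptors, did not pass after stroke. MCAO arrays of 1 day read 10.40 to 10.68 and sham arrays 10.09 to 10.50, a difference of 0.20 ± 0.34 (adjusted p = 0.863). The differences at 3 and 7 days were 0.24 ± 0.42 and -0.12 ± 0.42. After LPS Gpc4 read 11.66, 11.17, 10.34, 10.58 and 8.68, against saline values of 10.14, 9.86, 9.90 and 9.92. Every LPS array but replicate 5 was above all saline arrays, and replicate 5 was below them. With it the difference was 0.53 ± 0.34 (adjusted p = 0.476). Without it the difference was 0.98 ± 0.23 (adjusted p = 0.0146).

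Gpc6, a close relative of Gpc4, also divided the LPS arrays. LPS arrays read 12.56, 11.90, 10.48, 10.80 and 6.0 and saline arrays 10.30, 9.89, 10.49 and 10.19. LPS replicates 1, 2 and 4 were above all saline arrays, replicate 3 within them and replicate 5 far below. The difference was 0.13 ± 0.70 with replicate 5 (adjusted p = 0.945) and 1.22 ± 0.31 without it (adjusted p = 0.0247). Within the bright arrays Gpc4 differed by 1.06 and Gpc6 by 1.55 (adjusted p = 0.0281 and 0.0462), and within the dim arrays, where replicate 5 lies, by -0.28 and -1.94 (adjusted p = 0.565 and 0.101).

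After stroke Gpc6 read 9.75 to 10.73 at 1 day, around sham values of 9.82 to 10.37 (difference 0.18 ± 0.70). At 3 days MCAO values of 9.55, 9.01 and 9.36 were all below sham values of 9.92, 10.31 and 9.90, and at 7 days values of 10.06, 10.09 and 9.54 were all below 10.27, 10.77 and 10.64. The differences of -0.74 and -0.66 had an SE of 0.85 each and adjusted p-values of 0.976 and 1. That SE is pooled over the 8 groups, among them the LPS group with an SD of 2.57 for Gpc6. Groups did not overlap for 12.7% of all genes at 3 days and for 16.3% at 7 days.

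Chrdl1 did not pass in any comparison. At 1 day after stroke it read 9.12, 8.84, 9.30, 8.73 and 9.39, with sham values of 9.59, 9.56, 9.02 and 9.98. The groups overlapped through sham replicate 3, and the difference was -0.47 ± 0.23 (unadjusted p = 0.0538, adjusted p = 0.226). The mean of its 4 probe sets gave -0.52 (adjusted p = 0.013). At 3 and 7 days and after LPS the differences were 0.05 ± 0.28, 0.29 ± 0.28 and -0.12 ± 0.23, each with an adjusted p of at least 0.835.

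The differences between effects were tested directly. Of the 9 genes 0 passed in limma for the change of the stroke effect from 1 to 3 days, where 0.00636% of all genes passed, and 0 from 1 to 7 days (0.356% of all genes). From 3 to 7 days 0 passed, as did 0% of all genes. The stroke and LPS effects at 1 day also gave 0 of 9, with 1.39% of all genes passing. At an unadjusted p under 0.05 there were 0 of the 9 from 1 to 3 and from 3 to 7 days (5.99% and 1.74% of all genes). There were 3 from 1 to 7 days, Thbs1, Thbs2 and Chrdl1 (8.6% of all genes), and 2 between stroke and LPS, Thbs1 and Gpc5 (12.8% of all genes).

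Thbs1 had the lowest p between the injuries. Its stroke effect exceeded its LPS effect by 1.22 ± 0.41 (unadjusted p = 0.00578, adjusted p = 0.143), and by 1.41 without LPS replicate 5 (adjusted p = 0.048). For Gpc5 the stroke effect was 0.70 further down (-0.70 ± 0.28, adjusted p = 0.238). For Thbs2 the effects of stroke and LPS differed by 0.50 ± 0.56, with a 95% confidence interval from -0.65 to 1.66. Between 1 and 7 days the stroke effect differed by -1.14 ± 0.45 for Thbs1 (adjusted p = 0.4), -1.31 ± 0.63 for Thbs2 and 0.75 ± 0.36 for Chrdl1 (adjusted p = 0.574 for both). All surgery arrays of 1 day were bright and all of 7 days dim, so time and array set cannot be told apart here.

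**Figure D3:**
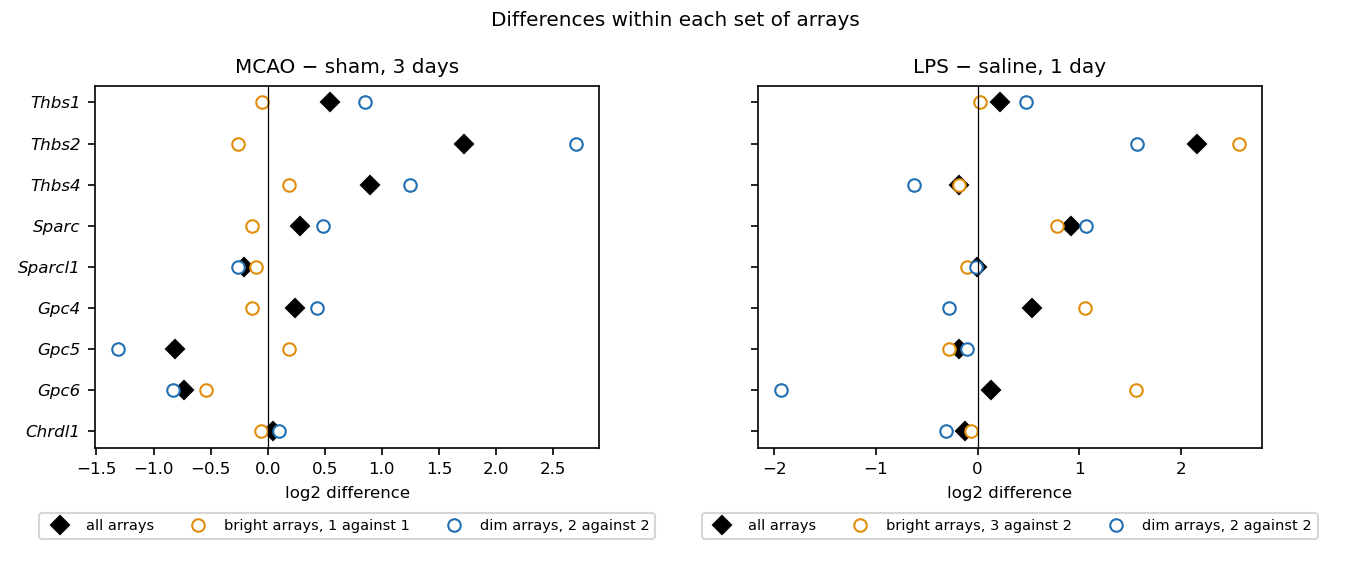
Log2 difference (x axis) of each of the 9 genes (y axis) at 3 days after MCAO and at 1 day after LPS, over all arrays (black diamonds), the bright arrays alone (orange) and the dim arrays alone (blue). At 3 days Thbs2 lies at 2.70 (dim) and -0.26 (bright pair); after LPS Gpc6 lies at -1.94 in the dim and 1.55 in the bright arrays.

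At 3 days the sign of the difference changed between the dim and the bright arrays for 6 of the 9 genes: Thbs1 (0.85 and -0.05), Thbs2, Sparc (0.49 and -0.14), Gpc4 (0.43 and -0.14), Gpc5 and Chrdl1 (0.10 and -0.05). The bright arrays of that day are 1 MCAO and 1 sham array, so that this pair has no replicate of its own and is assumed to vary like the other groups. After LPS the sign changed for Gpc4 and Gpc6. What separates the array sets is not given in the labels, and its part in these differences was not tested.

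**Figure D4:**
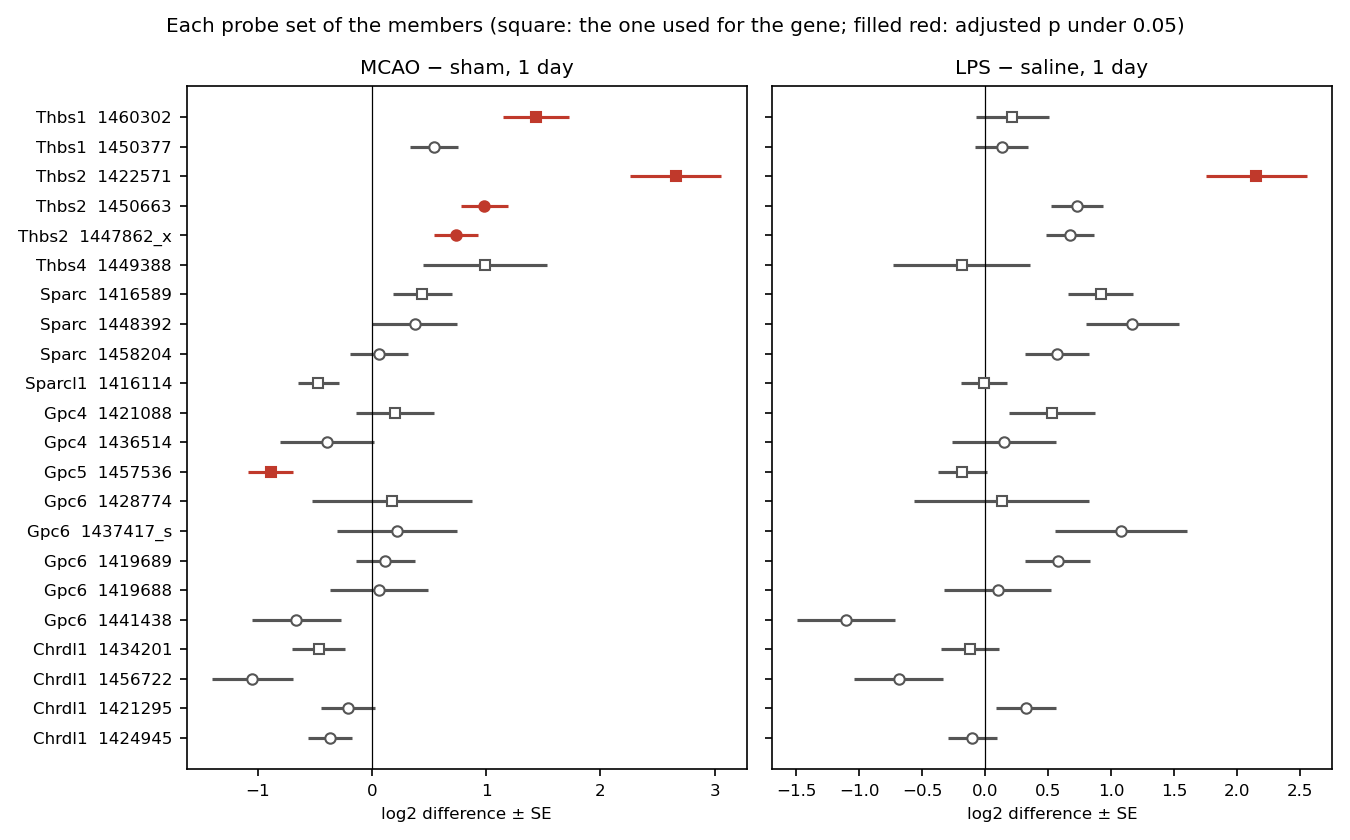
Log2 difference ± SE (x axis) of each of the 22 probe sets of the 9 genes (y axis) for MCAO at 1 day and LPS, in a fit of all probe sets; squares are the probe sets used for the gene and filled red symbols have an adjusted p under 0.05. The 3 Thbs2 probe sets are all filled for MCAO, and the 5 Gpc6 probe sets lie on both sides of 0 after LPS.

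The 9 genes are represented by 22 probe sets, all of which passed the filter among 29039 tested. For Thbs2 all 3 probe sets rose at 1 day after stroke, by 2.66 ± 0.40, 0.99 ± 0.21 and 0.74 ± 0.19 (adjusted p = 4.61e-05, 0.00178 and 0.0113). After LPS they gave 2.16, 0.73 and 0.67, of which only the first passed (adjusted p = 0.00212, 0.0518 and 0.0559). The second Thbs1 probe set gave 0.54 ± 0.21 at 1 day after stroke (adjusted p = 0.106). The size of the rise thus differed with the probe set.

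Gpc5 and Sparcl1 had 1 probe set each, as did Thbs4. The 3 Sparc probe sets gave 0.92, 1.17 and 0.57 after LPS, and none passed over all probe sets (adjusted p = 0.0534, 0.0908 and 0.268). The 4 Chrdl1 probe sets were between -1.05 and -0.21 at 1 day after stroke, the lowest with an adjusted p of 0.0549. The 5 Gpc6 probe sets were between -1.10 and 1.08 after LPS and disagreed in sign. The 2 Gpc4 probe sets were 0.20 and -0.39 at 1 day after stroke. After LPS they were 0.53 and 0.15 over all arrays (adjusted p = 0.476 and 0.895). Only the first of them was also fitted without LPS replicate 5.

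Across the 8 groups the order of the means differed between genes, and neighbours in each order mostly overlapped. Surgery groups of different days also differed in their share of bright arrays. Thbs1 and Thbs2 were highest at 1 day after stroke (6.17 and 8.23) and lowest in the sham group of that day. Gpc5 was the reverse at its upper end, highest in sham at 1 day (13.14) and lowest at 3 and 1 days after stroke (11.97 and 12.26). Thbs4 and Sparc were highest at 3 days after stroke, Gpc6 in sham at 7 days (10.56) and Chrdl1 in saline (9.76). Of the 7 neighbouring pairs per gene, all 7 overlapped for every gene except Sparcl1 and Gpc5, with 6 each.

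The 3 genes whose values followed each of the 9 most closely over the 30 arrays were found by Spearman's rho, as a description of arrays that share groups and array sets. For Thbs2 they were Sulf1, an extracellular heparan sulfate 6-O-endosulfatase (0.88), Tspan4 (0.87) and the protease inhibitor A2m (0.86). For Thbs1 they were Tgif1 (0.84), Il21 (0.84) and Numbl (0.81). Gpc5 was followed by the GABA-A receptor subunit Gabrb1 (0.90), Esco1 (0.89) and the acyl-CoA synthetase Acsl6 (0.88), and Sparcl1 by Hacd3 (0.89), the membrane glycoprotein Gpm6a (0.88) and Gpr37l1 (0.86). Thbs4 was followed by Rps3a1 (0.85), Atf4 (0.81) and Rpl7 (0.81), and Gpc4 by the lactate transporter Slc16a1 (0.85), Anp32e (0.84) and Twsg1 (0.83). For Sparc (Wnk4, Cd99 and Tns2), Gpc6 (Tmem62, Zdhhc13 and Dolpp1) and Chrdl1 (Abhd3, Cyb561a3 and Zfp157) rho was between 0.68 and 0.80.

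Counts in gene lists around the 9 genes were read against the share of all genes that passed at 1 day after stroke, 6.49% higher and 6.17% lower, and after LPS, 2.37% higher and 0.744% lower. The medians over all genes were -0.05 and 0.07. Of 18 enzymes that build or trim the heparan sulfate chains carried by glypicans, 3 rose and 1 fell at 1 day after stroke and the other 14 did not pass (median 0.05). The endosulfatases Sulf1 and Sulf2 rose by 2.92 ± 0.49 and 1.89 ± 0.44, the epimerase Glce rose by 1.03 ± 0.31, and Extl2 fell by 0.43 (SE 0.14). After LPS Sulf1 and Sulf2 rose as well, by 2.87 ± 0.49 and 2.59 ± 0.44, and 0 of the 18 fell (median 0.14). The adjusted p of Sulf1 was 0.000173 after stroke and 0.000824 after LPS.

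Of 12 proteases that cut matricellular proteins or shed cell-surface ones, 4 rose and 1 fell at 1 day after stroke (median 0.30), where 6.49% of all genes were higher and 6.17% lower. Adamts5, Adamts4 and Adamts1, which cleave matrix proteoglycans, rose by 2.56 ± 0.25, 2.12 ± 0.39 and 1.66 ± 0.42, and the sheddase Adam10 fell by 0.50 (SE 0.15). After LPS 0 of 12 passed in limma (3.11% of all genes), with 3 at an unadjusted p under 0.05 (16.4% of all genes, median 0.08). The stroke effect on Adamts5 exceeded the LPS effect by 2.66 ± 0.35 (adjusted p = 0.000122) (median of that difference over the 12 genes 0.08). From 1 to 7 days the stroke effect on Adamts5 changed by -2.12 ± 0.39 (adjusted p = 0.0114). The array set changed from bright to dim between these days as well, and its part cannot be told apart.

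Among 28 receptors and partners of these factors, 1 rose and 7 fell at 1 day after stroke (median -0.19, against -0.05 and 6.17% lower over all genes). Cacna2d2, of the family of the thrombospondin receptor, fell by 2.03 (SE 0.41), the thrombospondin receptor Cd47 fell by 1.19 (SE 0.29), Gria2 fell by 1.19 (SE 0.30) and Bmp7 fell by 0.77 (SE 0.20). After LPS only Cacna2d2 passed (-1.83 ± 0.41, adjusted p = 0.0102; median of the list -0.02). Of 14 family relatives 1 passed at 1 day after stroke and 1 after LPS, where 12.7% and 3.11% of all genes passed. It was Gpc2, a glypican of developing neurons, lower after stroke (-0.82 ± 0.25) and after LPS (-0.92 ± 0.25). The list's medians were -0.07 and 0.18. The stroke effect on the glutamate receptor gene Gria4 was 1.89 ± 0.42 higher at 7 days than at 1 (adjusted p = 0.038), days that also differ in array set.

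Of 15 other astrocyte factors that act on synapses, 1 rose and 4 fell at 1 day after stroke (median -0.23), where 6.49% of all genes were higher and 6.17% lower. The neurotrophin Bdnf rose by 2.43 ± 0.35. The phagocytic receptors Mertk and Megf10 fell by 1.19 (SE 0.19) and by 0.89 (SE 0.21), and the Mertk ligand Gas6 fell by 1.24 (SE 0.29). After LPS 2 fell, the ephrin receptor Epha4 (-1.73 ± 0.37) and Megf10 (-0.78 ± 0.21), with a median of 0.13. Bdnf differed between stroke and LPS by 2.29 ± 0.49 (adjusted p = 0.0165). At 3 and 7 days 0 members of these 5 lists passed in limma. At an unadjusted p under 0.05 the lists held 1 to 3 genes each at 3 days (9.53% of all genes) and 1 or 2 at 7 days (2.62% of all genes).

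Markers of cells other than astrocytes were read beside the rises of the thrombospondins and Sparc. The fibroblast list (6 genes such as Col1a2 and Dcn) had 0 called members in limma in each comparison. At an unadjusted p under 0.05 it held 3 genes at 7 days (2.62% of all genes). It held 1 each at 1 day and 3 days after stroke and after LPS (23.3%, 9.53% and 16.4% of all genes). Its mean per array was 7.13 to 7.22 in sham and 6.94 to 8.20 in MCAO at 1 day, and 6.41 to 7.73 in saline and 6.76 to 8.64 after LPS, with median differences of 0.18 and 0.82. At 7 days it was 7.32 to 7.94 in sham and 7.85 to 9.45 in MCAO (median 0.94), beside the differences of Sparc and Thbs2. At 3 days it was 7.41 to 10.04 in sham and 7.14 to 9.68 in MCAO (median 0.13). Pdgfra, which is also in the oligodendrocyte precursor list below, had group means of 7.51 in sham and 9.84 in MCAO at 7 days. The means of Col1a1 at that time were 7.38 and 7.33.

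For pericytes and smooth muscle the ranges over 7 genes were 8.24 to 9.04 and 8.15 to 9.16 at 1 day after surgery and 7.27 to 7.93 and 7.66 to 8.14 for saline and LPS (median log2 differences over the list -0.12 and 0.22). At 3 days they were 7.47 to 7.95 in sham and 8.11 to 8.69 in MCAO (median 0.42). At 7 days they were 7.40 to 7.69 and 7.76 to 8.22 (median 0.19). All MCAO arrays were thus above all sham arrays at both times. For single genes, groups did not overlap for 12.7% of all genes at 3 days and 16.3% at 7 days. Of this list Tagln rose by 1.53 ± 0.39 at 1 day and by 2.46 ± 0.48 at 3 days after stroke, and Rgs5 rose by 1.98 ± 0.41 after LPS, while the group mean of Pdgfrb was 11.28 in sham and 10.35 in MCAO at 1 day (not passing). Endothelial markers (8 genes, mean per array) read 7.08 to 9.54 on the 1-day surgery arrays of both groups and 5.49 to 6.60 on all other arrays, and Vwf rose by 1.58 ± 0.51 at 1 day after stroke. Of 8 microglia and macrophage markers Cd68 alone passed at 1 day after stroke (1.98 ± 0.26), and the median of the list was -0.06. Of 5 neutrophil and monocyte markers S100a8 (0.87 ± 0.29) and Il1r2 (0.87 ± 0.17) rose (median 0.24). Of 3 platelet markers Itga2b rose (1.49 ± 0.21), with a list median of -0.08 and Pf4 and Gp9 not passing. Over all genes 6.49% were higher and 6.17% lower in limma at 1 day after stroke. The part of these cells in the rises of Thbs1, Thbs2 and Sparc, and in the differences of Thbs2 and Sparc at 3 and 7 days, was not tested.

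Neuron markers (8 genes) had 0 called members in limma in each comparison. At an unadjusted p under 0.05 there was 1 at each time after stroke and 0 after LPS. Over all genes 23.3%, 9.53% and 2.62% were under it at 1, 3 and 7 days, and 16.4% after LPS. The medians of the neuron list were -0.335, 0.208 and 0.194 at 1, 3 and 7 days after stroke and 0.147 after LPS. For oligodendrocytes and their precursors the called markers were Cnp (-0.69 ± 0.20) and Cacng4 (-1.12 ± 0.30) at 1 day after stroke and C1ql1 (1.81 ± 0.21) at 7 days. The medians at 1 day were -0.43 for 6 oligodendrocyte markers and -0.08 for 7 precursor markers. At 3 days they were 1.04 and 0.53, with 1 and 3 genes at an unadjusted p under 0.05 (9.53% of all genes). At 7 days they were 0.08 and 0.89, with 0 and 5 such genes (2.62% of all genes). No member of the 9 genes passed at 7 days.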

How the data were processed

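Intensities were deposited by the authors as 1 whole number per probe set and array (9 to 35553) after RMA, per the submitters' processing notes; the version of RMA and the genome build are not given in the sources used here. These linear values were put on the log2 scale. Of the 45037 probe sets, 34945 were listed with 1 symbol, 932 with several and 9160 with none, which gave 18193 genes. Each gene was read from its probe set of highest mean across the 30 arrays, and genes at log2 5 or more (intensity 32) on at least 3 arrays were kept (15726, with 2467 set aside). The number of arrays limits the precision.

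Differences were tested, 2-sided, with limma 3.58.1 in R 4.3.3, in 1 fit of the 8 groups (22 residual and 4.55 prior degrees of freedom). P-values were adjusted by the Benjamini-Hochberg method across the 15726 genes, and a gene passed under 0.05. The labels call arrays biological replicates without saying that each is a separate mouse, so p-values measure only the spread between these samples.

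The genes and lists were chosen with earlier results of these data known. From each list up to 4 genes passing the test are named per comparison, by smallest adjusted p. The marker genes named are those that passed. The array sets were defined after the data were seen.

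No label says that the 1-day surgery arrays are paired, and the main fit does not pair them. Matched by the replicate numbers in their descriptions, the deviations of 4 pairs correlated at 0.234, 0.191, 0.5 and 0.164. With these numbers as blocks, which leaves out MCAO replicate 1, Thbs1, Thbs2 and Gpc5 still passed. Alternatives were another normalization or centring, other filters, other probe sets, other variance models, other sets of samples and blocks, and leaving out each array. Sequences are from RefSeq (GRCm38.p6). All 9 genes matched its gene table and 5 its promoters.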

Additional observations from a re-analysis of the deposited data

Results flagged for a closer look

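Sparc on MCAO replicate 1 at 1 day read 11.62, far from the other 4 MCAO arrays at 12.39 to 12.46: its gap to the nearest was 0.924 of the group's range. It was the 1 flag among 36 groups of 4 or 5 arrays tested, and chance flags about 1 in 20. No cause was tested.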

How the results depend on the processing

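Over 41 results, 897 alternative values were computed: 810 kept direction and side of the threshold, 18 lost the call, 35 gained one and 34 changed sign, 0 of them among called values. At 1 day after stroke Thbs1 (0.99 to 1.56), Thbs2 (1.46 to 2.81) and Gpc5 (-0.95 to -0.78) passed under every alternative run, and Thbs2 after LPS (1.19 to 2.57) did too. The call of Sparc after LPS was lost under 11 of 15 alternatives and 7 of 9 left-out arrays.

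The number of genes passing at 1 day after stroke (3) became 4 with quantile normalisation, with the mean of probe sets and with the compared groups alone, 7 with array weights and 5 with the title numbers as a replicate block, which adds Thbs4 (1.29, adjusted p = 0.0369) and Sparcl1 (-0.53, adjusted p = 0.0203). With title numbers not every pair of deviations correlated above 0.1, at 1 day (0.15, -0.105, -0.236 and -0.114), at 3 days (0.185, 0.027 and 0.208), at 7 days (0.375, 0.309 and 0.004) or for LPS and saline (0.312, -0.317, -0.396 and 0.425). At 3 days the count of 0 became 1 with quantile normalisation, 3 with array weights, 2 in the dim arrays, and 0 to 2 without single arrays. After LPS the count of 2 became 1 with quantile normalisation, median centring, no filter, robust variances, the compared groups alone, the description block (which leaves LPS and saline unblocked) and the dim arrays, 3 with array weights, with LPS replicate 5 out and in the bright arrays, and 1 to 3 without single arrays. Between 1 and 7 days the count of 0 became 5 with array weights and 3 with the groups alone. Between 3 and 7 days it became 1 with array weights. Between stroke and LPS it became 5 with array weights, 1 with LPS replicate 5 out, and 0 to 1 without single arrays. The share of all genes passing under these other settings was not recorded, so the counts cannot be read against it.

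None of the values that changed sign had passed the test. With the mean of probe sets these were Gpc4 (-0.094) and Gpc6 (-0.017) at 1 day, and Gpc4 (-0.016) and Chrdl1 (-0.065) at 3 days. In the bright arrays at 3 days they were Thbs1 (-0.051), Thbs2 (-0.26), Sparc (-0.14), Gpc4 (-0.14), Gpc5 (0.18) and Chrdl1 (-0.054). After LPS they were Gpc6 with quantile normalisation (-0.006), Thbs4 (0.92), Sparcl1 (0.25) and Chrdl1 (0.18) with array weights, Thbs4 (0.21) and Sparcl1 (0.014) with LPS replicate 5 out and, alike, with the title block, and Gpc4 (-0.28) and Gpc6 (-1.94) in the dim arrays. Without single arrays the ranges were -0.14 to 0.25 for Chrdl1 and -0.10 to 0.55 for Sparc at 3 days, -0.26 to 0.036 for Gpc4 at 7 days, and -0.42 to 1.22 for Gpc6, -0.11 to 0.15 for Sparcl1 and -0.50 to 0.21 for Thbs4 after LPS. The causes were not tested. Readings near log2 5 (Thbs1, and the control arrays of Thbs2) limit the precision of their folds.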
